A study of Homo sapiens with 12 samples.

Results

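Mitochondrial ribosomal protein genes were followed in HEL and UKE1 cells cultured with or without the histone deacetylase inhibitor ITF2357. Members were all genes whose symbol starts with MRPL or MRPS and a digit, pseudogenes left out, with a row of their own in the deposited table. This gave 73 genes of 18417 tested, 48 of them MRPL (mostly large subunit) and 25 MRPS (mostly small subunit). RefSeq lists 77 coding genes with such symbols, and MRPL51, MRPS6, MRPS24 and MRPS28, which lie only on rows that carry several gene symbols, were not analysed here. No filter on low values was used, so all 73 were tested. Symbols do not always give the place of a protein, since structures of the human mitochondrial ribosome put MRPS18A and MRPS30 in the large subunit.

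HEL and UKE1 are established human lines labelled as erythroleukemia, and both carry the JAK2V617F mutation. ITF2357 (givinostat) blocks enzymes that take acetyl groups off histones and other proteins. The 4 groups were HEL untreated, HEL with 250 nM ITF2357 for 6 h, UKE1 untreated and UKE1 with the same dose and time, each with 3 Affymetrix Gene 1.0 ST arrays of RNA that the series calls independent triplicates. The medium of UKE1 also held horse serum, hydrocortisone and HEPES, so line and medium cannot be told apart. Each line is a single model. The p-values measure the spread between triplicates, pooled for each gene over the 4 groups of both lines.

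Mitochondria carry their own ribosome, which translates the few messenger RNAs of the mitochondrial genome into core subunits of the respiratory chain and of ATP synthase. Its ribosomal RNAs come from the mitochondrial genome, while all its proteins are encoded in the nucleus, made in the cytosol and imported. Many of these proteins have bacterial counterparts, and others are found only in mitochondria. Erythroid cells make haem in part in mitochondria, and some leukaemic blood cells are known to depend on mitochondrial translation.

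Correlations over all rows were 0.994 to 0.996 within a group, 0.981 to 0.985 across treatments within a line, and 0.928 to 0.943 across lines. Of the defining erythroid and megakaryocytic markers, GATA1 had a mean log2 value of 10.28 in untreated HEL and 7.46 in untreated UKE1, ALAS2 9.48 and 5.96, and ITGA2B 12.08 and 10.73. All 3 T cell receptor complex genes CD3D, CD3E and CD3G were at 4.16 to 4.96 in untreated HEL and at 8.56 to 9.92 in untreated UKE1. With ITF2357 they were at 3.99 to 4.86 in HEL and at 8.35 to 9.56 in UKE1. The part of these markers in the differences between the lines was not tested. Because the table has no detection calls, absence cannot be stated for any gene.

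The promoters of the members were read first for letters that nuclear regulators of mitochondrial genes bind. RefSeq (GRCh38.p14) promoters were matched for 66 of the 73 members, and the 250 bases before the start were searched on both strands for 4 motifs. The ETS motif CCGGAAG, bound by GABP, was in 22 of the 66 (33.3%), in 12.3% of 13769 coding genes tested and in 8.82% of all 27305 promoters. The NRF1 motif GCGCANGCG was in 13 (19.7%), against 10.2% and 7.02%. The YY1 motif AAGATGGC was in 5 (7.58%), against 1.47% and 1.37%, and the E-box CACGTG, bound by MYC among others, was in 6 (9.09%), against 7.93% and 6.49%. At least 1 motif was in 36 members (54.5%), in 27.5% of coding genes tested and in 20.7% of all promoters. None of the 55 matches in members overlapped a match to another motif. The shares of coding genes and of all promoters were not matched to the members for expression level.

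The stretches just before the start are printed for the 4 members with the lowest and the 3 with the highest average change under ITF2357 among those matched, to set the promoters of members that moved in opposite directions side by side. Their choice, and their length of 80 bases, were made after the values were seen, and the one of MRPL27 stops at 44 bases because the neighbouring gene EME1 starts there. Each is read 5′ to 3′ along the gene's own strand and ends at the base before the start, and capitals mark the ETS motif.
MRPL27 (chr17:50373185-50373228, minus strand): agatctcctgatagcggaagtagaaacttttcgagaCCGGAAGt
MRPL58 (chr17:75012590-75012669, plus strand): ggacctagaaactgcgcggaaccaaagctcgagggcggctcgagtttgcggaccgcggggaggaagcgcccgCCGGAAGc
MRPL3 (chr3:131502972-131503051, minus strand): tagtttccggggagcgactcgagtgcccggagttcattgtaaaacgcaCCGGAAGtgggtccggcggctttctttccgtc
MRPS18B (chr6:30617760-30617839, plus strand): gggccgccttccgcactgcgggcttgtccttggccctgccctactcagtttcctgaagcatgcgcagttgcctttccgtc
MRPS14 (chr1:175023426-175023505, minus strand): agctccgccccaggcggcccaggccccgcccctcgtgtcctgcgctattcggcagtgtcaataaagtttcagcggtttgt
MRPL55 (chr1:228109300-228109379, minus strand): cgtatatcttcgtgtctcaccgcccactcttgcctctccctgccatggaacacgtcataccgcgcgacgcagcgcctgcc
MRPS31 (chr13:40771191-40771270, minus strand): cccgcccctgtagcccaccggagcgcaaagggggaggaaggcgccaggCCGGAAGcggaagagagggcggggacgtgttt
The first 4 of these genes fell in both lines and the last 3 did not. The ETS letters stood in 3 of the 4 and in 1 of the 3, and in MRPL3 and MRPS31 they lay at the same distance, from base -32 to base -26. Over all 66 matched members the order was the other way, with the ETS letters in 9 of 36 (25%) that fell in both lines and in 13 of the 30 others (43.3%).

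In HEL cells, ITF2357 lowered most mitochondrial ribosomal protein genes by a modest amount. The median over the 73 members was 9.05, 9.01 and 8.98 on the 3 untreated arrays and 8.62, 8.56 and 8.59 on the 3 treated ones, on the log2 scale of the deposited values. A gene is said to have risen or fallen when limma's moderated test gave an adjusted p under 0.05 over all 18417 genes. By this rule 50 members (68.5%) fell and 2 rose, against 19.9% of all genes that fell and 22.6% that rose. By mean level over all arrays, 68 of the 73 members lay above the median gene. All genes are thus not a background of like level. When only genes above the median level were tested, 47 of 68 members fell and 2 rose. Of all genes in that test, 33% fell and 36% rose. Apart from the same test in UKE1, the shares of all genes given below are not matched for level. The median log2 change of the members was -0.32, or 1.25-fold down, with a range of -1.02 to 0.37, beside -0.013 over all genes. In bulk RNA, fewer cells of a type and less RNA per cell cannot be told apart.

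The deepest fall was that of MRPL15, a large subunit protein with a bacterial counterpart. Its log2 values were 9.33, 9.29 and 9.38 on the untreated HEL arrays and 8.33, 8.25 and 8.36 on the treated ones, so the treated arrays lay about a log2 unit lower with no overlap. The change was -1.02 ± 0.0589 (SE; limma adjusted p = 1.49e-08), 2.03-fold down, and MRPL15 was the 1 member that fell at least 2-fold, against 1.36% of all genes. MRPL27, whose bacterial counterpart lies close to the peptidyl transferase centre, was at 9.66, 9.57 and 9.64 without drug and at 8.65, 8.60 and 8.70 with it. Every treated array was below every untreated one, and the change was -0.97 ± 0.0641 (adjusted p = 4.67e-08), 1.96-fold down. MRPL58, a peptidyl-tRNA hydrolase built into the large subunit that frees stalled ribosomes, was at 9.19, 9.08 and 8.93 without drug and at 8.01, 8.17 and 8.40 with it. Its replicates were more spread than those of MRPL15, yet the groups stayed apart, with a change of -0.87 ± 0.0996 (adjusted p = 6.59e-06).

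MRPL3, a core large subunit protein in which inherited mutations cause a mitochondrial disease, was at 11.57, 11.43 and 11.47 in untreated HEL and at 10.65, 10.67 and 10.64 with ITF2357. The treated arrays differed by little among themselves and all lay below the untreated ones, with a change of -0.84 ± 0.0624 (adjusted p = 1.34e-07). MRPL46, a protein found only in mitochondrial ribosomes, was at 10.00, 9.97 and 9.91 without drug and at 9.19, 9.16 and 9.17 with it, a fall of 1.72-fold (adjusted p = 1.79e-07). In the small subunit, MRPS7, the counterpart of a bacterial protein that organises the head of the subunit, was at 9.39, 9.32 and 9.29 without drug and at 8.58, 8.53 and 8.73 with it. It fell 1.65-fold (log2 -0.72 ± 0.0706, adjusted p = 1.58e-06), again with no overlap of the arrays.

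MRPS12, the counterpart of a bacterial protein of the decoding centre, was at 8.60, 8.56 and 8.73 without drug and at 7.68, 8.07 and 8.16 with it. The SD over the treated arrays, 0.257, was the largest of any member in any group, where the median SD of a member within a group was 0.071. Its change was -0.66 ± 0.111 (adjusted p = 0.000228). MRPL20 and MRPL9, both with bacterial counterparts, fell 1.61-fold and 1.6-fold (adjusted p = 1.29e-06 and 4e-06). In all, 13 members fell at least 1.5-fold in HEL, against 5.84% of all genes.

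Only MRPL55 and MRPL49 rose in HEL among the 73. MRPL55, a large subunit protein, was at 7.20, 7.26 and 7.22 without drug and at 7.67, 7.48 and 7.65 with it. All treated arrays lay above the untreated ones, with a change of 0.37 ± 0.0822 (adjusted p = 0.00201), 1.29-fold. MRPL49, a large subunit protein without a bacterial counterpart, was at 9.75, 9.63 and 9.62 without drug and at 9.96, 9.90 and 10.01 with it, a rise of 0.29 ± 0.0687 (adjusted p = 0.00316). The treated arrays of 53 members lay wholly below the untreated ones and those of 2 wholly above, where 23.7% and 25.3% of all genes did so.

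**Figure D1:**
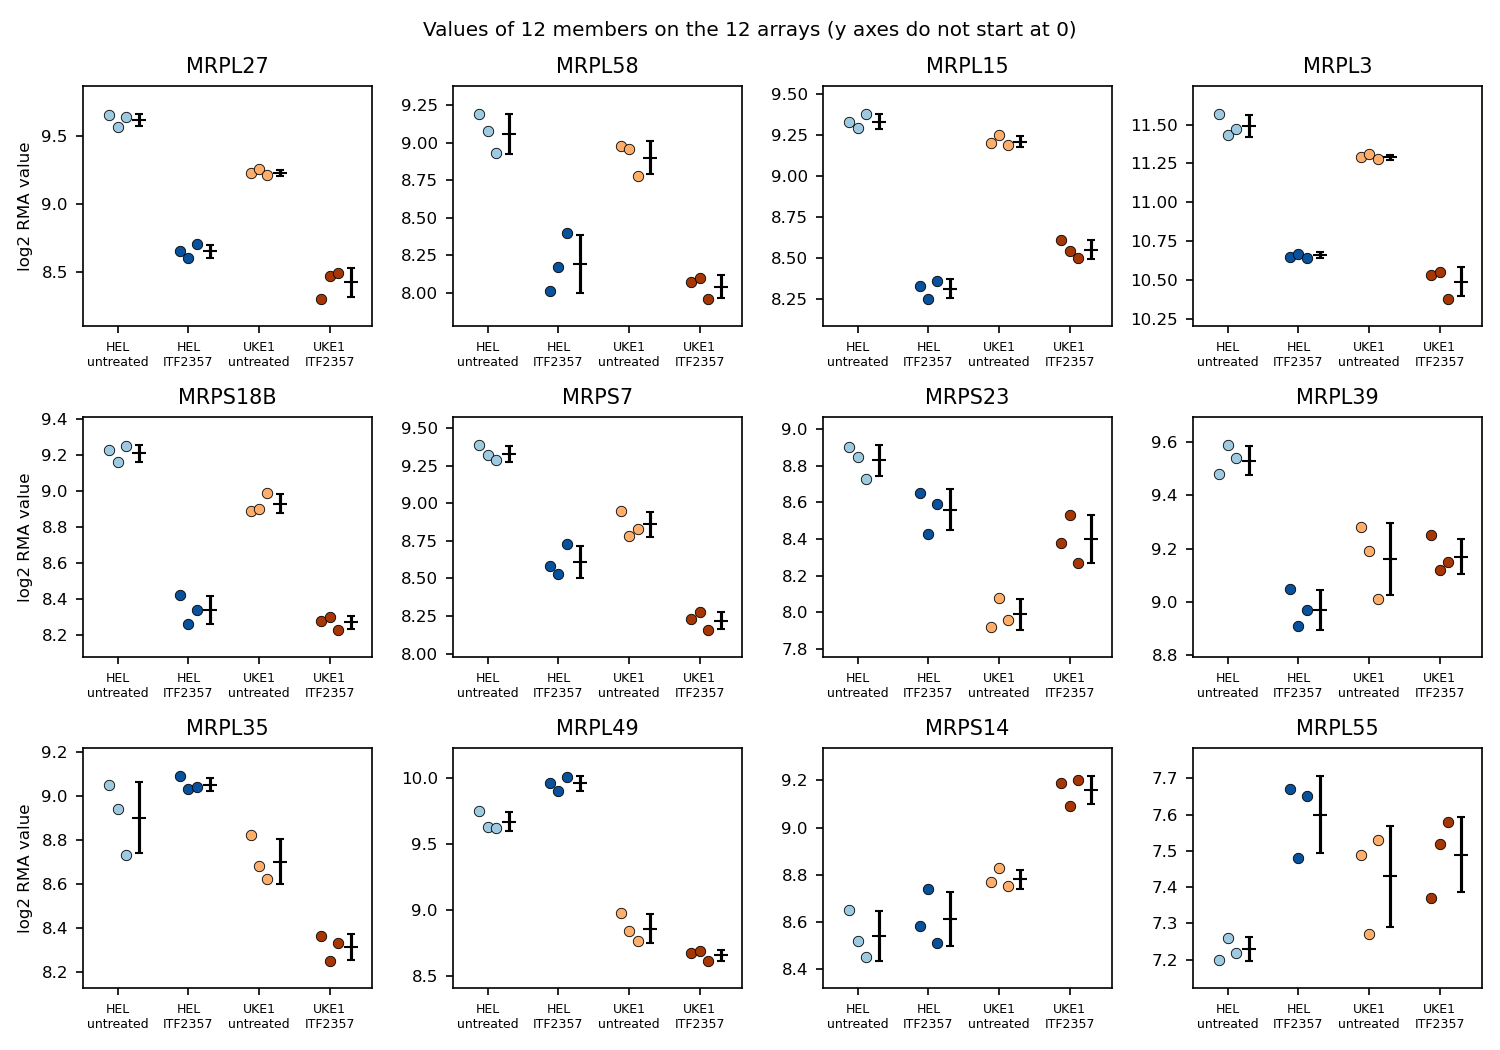
Log2 RMA value (y axis, not starting at 0) of 12 members on the 3 arrays of each of the 4 groups (x axis); points are arrays, and the dash with a bar is the mean with its SD. MRPL27, MRPL58, MRPL15, MRPL3, MRPS18B and MRPS7 are lower with ITF2357 in both lines, MRPS23 and MRPL49 move in opposite directions, and MRPS14 is higher with ITF2357 in UKE1.

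UKE1 cells showed the same main direction. The median over members was 8.80, 8.76 and 8.76 on the untreated UKE1 arrays and 8.41, 8.46 and 8.33 on the treated ones. Here 45 members (61.6%) fell and 4 rose, against 22.3% of all genes that fell and 22% that rose. When only genes above the median level were tested, 44 of 68 members fell and 5 rose. Of all genes in that test, 37% fell and 32% rose. The median log2 change was -0.29, or 1.22-fold down, with a range of -0.86 to 0.41, beside 0.011 over all genes. Treated arrays lay wholly below the untreated ones for 50 members and wholly above for 5, against 26.7% and 27.2% of all genes. A fall of at least 1.5-fold was seen for 11 members, against 7.87% of all genes.

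The deepest fall in UKE1 was that of the hydrolase MRPL58, at 8.98, 8.96 and 8.78 without drug and 8.07, 8.10 and 7.96 with it. The groups did not overlap, and the change was -0.86 ± 0.0996 (adjusted p = 6.91e-06), 1.81-fold down. MRPL27 was at 9.23, 9.26 and 9.21 without drug and at 8.30, 8.47 and 8.49 with it, a change of -0.82 ± 0.0641 (adjusted p = 1.8e-07). MRPL3 was at 11.29, 11.31 and 11.28 without drug and at 10.53, 10.55 and 10.38 with it, a change of -0.81 ± 0.0624 (adjusted p = 1.61e-07). For both genes each treated array was below each untreated one, as it had been in HEL.

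MRPL15 was at 9.20, 9.25 and 9.19 in untreated UKE1 and at 8.61, 8.54 and 8.50 with ITF2357, a change of -0.67 ± 0.0589 (adjusted p = 5.32e-07) and thus a smaller fall than in HEL. MRPL46 fell 1.65-fold, MRPL24, a core large subunit protein, 1.61-fold, and MRPL50, found only in mitochondria, 1.51-fold (adjusted p = 3.24e-07, 9.68e-07 and 9.86e-06). In the small subunit MRPS7 was at 8.95, 8.78 and 8.83 without drug and at 8.23, 8.28 and 8.16 with it, a fall of 1.55-fold (adjusted p = 4.91e-06). MRPS2, which has a bacterial counterpart in the small subunit, fell 1.51-fold (adjusted p = 2.1e-05). The arrays of these genes did not overlap between treatments.

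The members that rose in UKE1 were MRPS23, MRPS14, MRPS31 and MRPL10. MRPS14, a small subunit protein with a bacterial counterpart, was at 8.77, 8.83 and 8.75 without drug and at 9.19, 9.09 and 9.20 with it. All treated arrays were higher, with a change of 0.38 ± 0.0739 (adjusted p = 0.000724), 1.3-fold. MRPS31, a small subunit protein without such a counterpart, went from 8.12, 8.13 and 8.01 to 8.44, 8.42 and 8.40, a rise of 1.26-fold (adjusted p = 0.00048). MRPL10, which anchors the flexible stalk of the large subunit in bacteria, went from 8.99, 8.72 and 8.82 to 9.13, 9.16 and 8.99. The change of MRPL10 was 0.25 ± 0.0733 (adjusted p = 0.0121), and it was no longer called without untreated replicate 2 (adjusted p = 0.0652) or without treated replicate 2 (adjusted p = 0.0555), with a range of 0.00267 to 0.0652 over 19 alternatives.

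**Figure D2:**
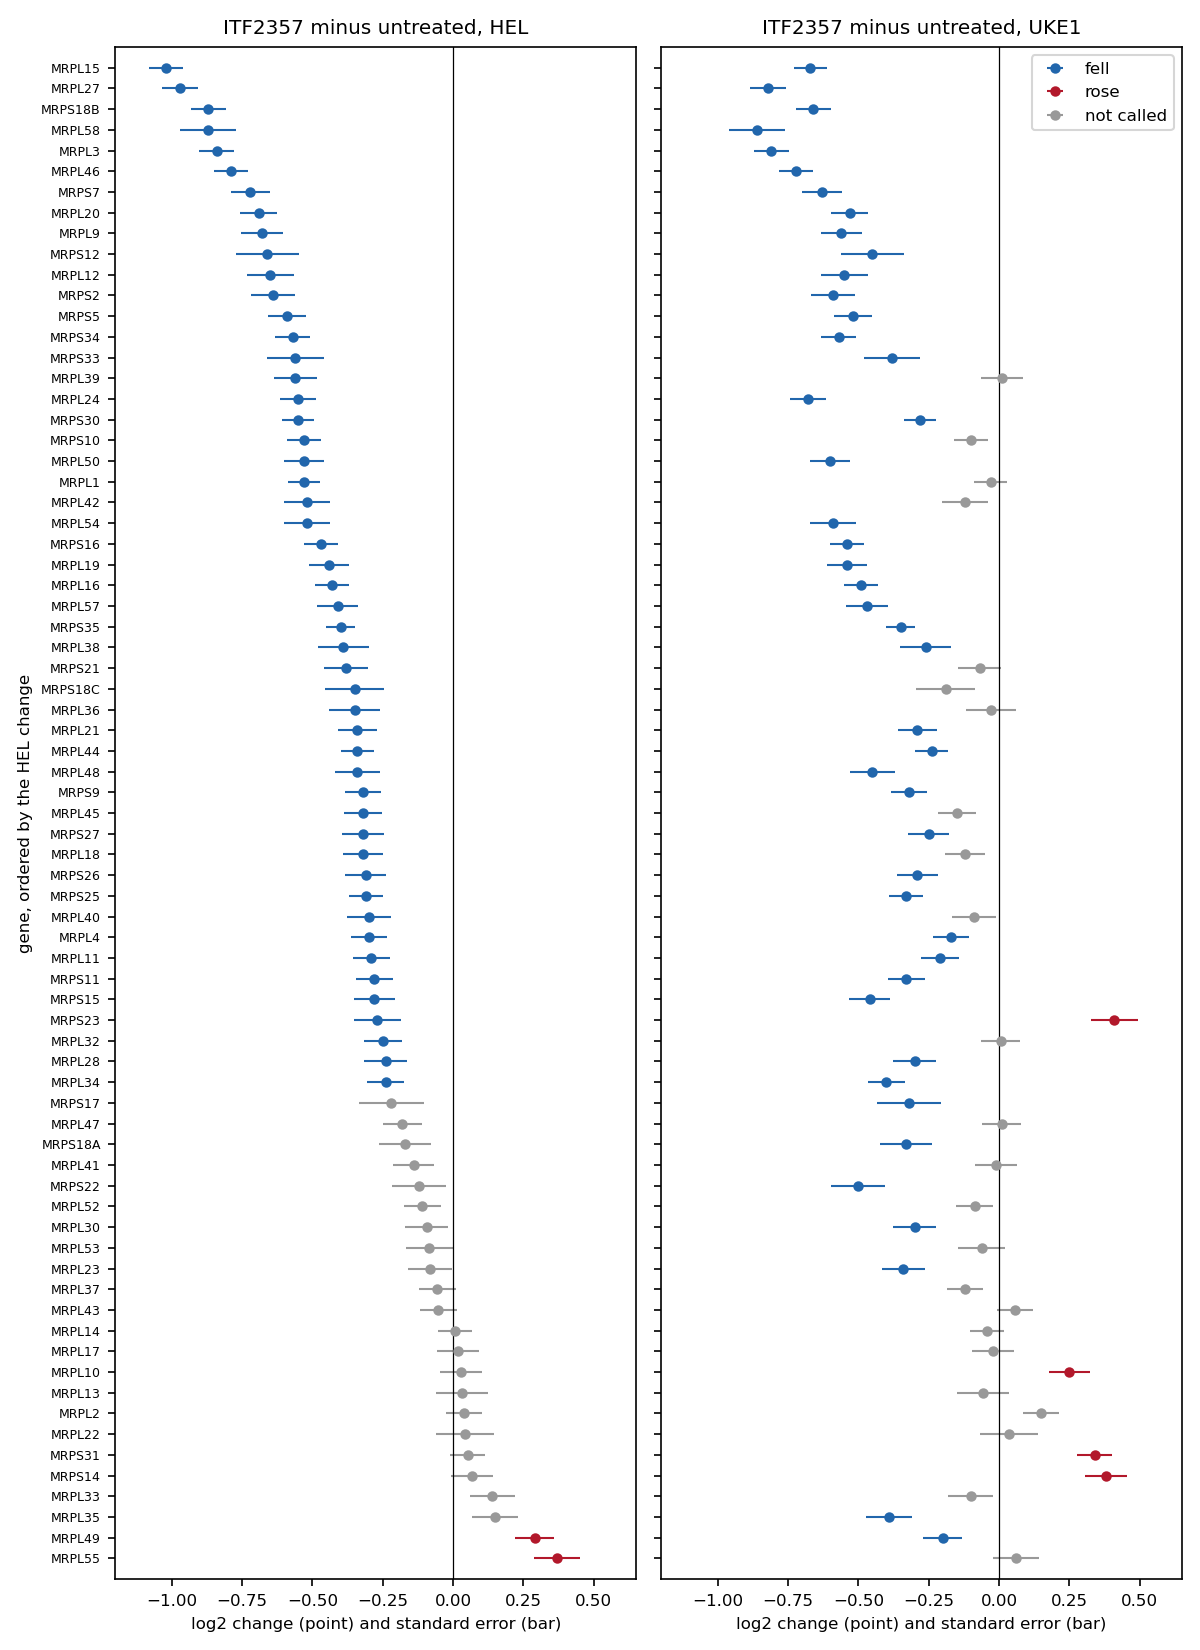
Log2 change under ITF2357 (x axis) of each of the 73 members (y axis, ordered by the change in HEL) in HEL on the left and UKE1 on the right; bars are standard errors and colours give the call. In HEL 50 members fell and 2 rose, and in UKE1 45 fell and 4 rose.

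Of the members, 38 fell in both lines, where 12.9% of all genes did, and these made up 76% of the members that fell in HEL and 84.4% of those that fell in UKE1. Over all genes, 65.2% of the falls in HEL and 58% of those in UKE1 were shared. No member rose in both lines, against 14% of all genes. Beside those named above, the 38 include MRPL12, the protein of the flexible stalk where translation factors bind, which changed by -0.65 in HEL and -0.55 in UKE1 (adjusted p = 1.99e-05 and 8.36e-05). They also include MRPS34, a small subunit protein found only in mitochondria, which changed by -0.57 in each line (adjusted p = 4.56e-06 and 4.32e-06). The change had the same sign in both lines for 62 of the 73. Across the 73 genes, which share the arrays and are not independent replicates, the changes in HEL and UKE1 correlated at r = 0.714 and rho = 0.702.

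When the responses of both lines were averaged, 54 members fell and 4 rose, against 24.9% of all genes that fell and 26.1% that rose (51% in either direction), and the median change was -0.29. In HEL 11 members fell that were not called in UKE1, and in UKE1 6 fell that were not called in HEL, against 6.31% and 7.9% of all genes. A set of 12 members, MRPL2, MRPL13, MRPL14, MRPL17, MRPL22, MRPL33, MRPL37, MRPL41, MRPL43, MRPL47, MRPL52 and MRPL53, was called in neither line, against 42.3% of all genes. All of these are MRPL genes.

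By symbol, 30 of 48 MRPL genes (62.5%) fell in HEL and 26 (54.2%) in UKE1, and 2 and 1 rose. Of 25 MRPS genes, 20 (80%) fell in HEL and 19 (76%) in UKE1, and 0 and 3 rose. Over all genes 19.9% fell and 22.6% rose in HEL, and 22.3% fell and 22% rose in UKE1. The median change was -0.31 and -0.20 for MRPL and -0.35 and -0.33 for MRPS in HEL and UKE1. Of 45 members with a bacterial counterpart, 30 (66.7%) fell in HEL and 28 (62.2%) in UKE1, with medians of -0.32 in both lines. Of the 28 members not listed with such a counterpart, 20 (71.4%) fell in HEL and 17 (60.7%) in UKE1, with medians of -0.33 and -0.26. Both in the class with a counterpart and in the class without, 1 member rose in HEL and 2 in UKE1. These classes were not tested against each other.

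The MRPS18 genes are paralogs that descend from a single bacterial protein, and their products sit at different places of the ribosome. MRPS18B fell in both lines. It was at 9.23, 9.16 and 9.25 in untreated HEL and 8.42, 8.26 and 8.34 with drug, and at 8.89, 8.90 and 8.99 in untreated UKE1 and 8.28, 8.30 and 8.23 with drug. Its changes were -0.87 ± 0.0614 and -0.66 ± 0.0614 (adjusted p = 7.78e-08 and 8.85e-07), and the treatments did not overlap in either line.

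MRPS18A, of the large subunit, was at 8.81, 8.53 and 8.77 in untreated HEL and 8.53, 8.40 and 8.66 with drug, with overlap and a change of -0.17 ± 0.0929 (adjusted p = 0.168). In UKE1 it went from 8.87, 8.71 and 8.79 to 8.49, 8.58 and 8.33, with no overlap and a change of -0.33 ± 0.0929 (adjusted p = 0.0107). Both calls turned on single arrays: without untreated HEL replicate 2 the HEL change was -0.26 (adjusted p = 0.0447), and without treated UKE1 replicate 3 the UKE1 change was -0.26 (adjusted p = 0.0572). Over 19 alternatives the adjusted p ranged from 0.0447 to 0.457 in HEL and from 0.00182 to 0.0572 in UKE1.

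MRPS18C was at 7.12, 7.11 and 6.87 in untreated HEL and 6.77, 6.61 and 6.66 with drug, a change of -0.35 ± 0.106 (adjusted p = 0.0154). This call was lost without untreated replicate 1, untreated replicate 2 or treated replicate 2 (adjusted p = 0.0594, 0.0568 and 0.0573), with a range of 0.00378 to 0.0594 over 18 alternatives. In UKE1 it was at 6.84, 7.02 and 6.66 without drug and 6.79, 6.70 and 6.47 with it, and the groups overlapped (-0.19 ± 0.106, adjusted p = 0.175). A difference between the responses of the lines was not called for any of the 3 paralogs.

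Whether the lines responded differently was tested gene by gene as the UKE1 response minus the HEL response. The responses differed for 11 members, 9 of them more positive in UKE1 and 2 more negative, against 10.1% and 13.8% of all genes (23.9% in either direction). When each array was centred on its median instead, the split was 5 and 4. The median of this difference over members was 0.051 on the deposited values and -0.006 after that centring, beside 0.0098 over all genes on the deposited values. It was 0.03 without untreated HEL replicate 1, 0.08 without untreated HEL replicate 3 and 0.089 without treated HEL replicate 3.

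The widest difference was that of MRPS23, a small subunit protein without a bacterial counterpart. It was at 8.90, 8.85 and 8.73 in untreated HEL and at 8.65, 8.43 and 8.59 with ITF2357, but at 7.92, 8.08 and 7.96 in untreated UKE1 and at 8.38, 8.53 and 8.27 with it. The treated arrays lay below the untreated ones in HEL and above them in UKE1. The changes were -0.27 ± 0.0833 in HEL (adjusted p = 0.0174) and 0.41 ± 0.0833 in UKE1 (adjusted p = 0.00102), and their difference was 0.68 ± 0.118 (adjusted p = 0.000912). The fall in HEL alone was not called without untreated replicate 1, untreated replicate 2 or treated replicate 2 (adjusted p = 0.0637, 0.0506 and 0.0834), with a range of 0.00381 to 0.0834 over 19 alternatives.

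MRPL49 moved the other way, up in HEL and, from 8.98, 8.84 and 8.77 to 8.68, 8.69 and 8.62, down in UKE1. The UKE1 change was -0.20 (adjusted p = 0.0297) and the difference -0.49 ± 0.0972 (adjusted p = 0.00234). The UKE1 fall alone was not called after quantile normalization (adjusted p = 0.0575), nor without untreated replicate 1 (0.142) or treated replicate 1, 2 or 3 (0.0543, 0.0534 and 0.0963), with a range of 0.00906 to 0.142 over 19 alternatives. MRPL35, with a bacterial counterpart, was at 9.05, 8.94 and 8.73 in untreated HEL and 9.09, 9.03 and 9.04 with drug, groups that overlap. In UKE1 it went from 8.82, 8.68 and 8.62 to 8.36, 8.25 and 8.33, with no overlap. Its UKE1 change was -0.39 ± 0.0813 (adjusted p = 0.00114) and the difference -0.54 ± 0.115 (adjusted p = 0.00381).

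MRPL39, MRPL1 and MRPS10 fell in HEL and showed no call in UKE1. MRPL39, which resembles a tRNA synthetase in sequence, went from 9.48, 9.59 and 9.54 to 9.05, 8.91 and 8.97 in HEL, and from 9.28, 9.19 and 9.01 to 9.25, 9.12 and 9.15 in UKE1. The HEL arrays did not overlap and the UKE1 arrays did, and the difference of the responses was 0.57 ± 0.106 (adjusted p = 0.00146). MRPL1, of the stalk by which used tRNA leaves the ribosome, went from 9.0, 8.94 and 8.84 to 8.39, 8.41 and 8.39 in HEL, and from 10.05, 10.05 and 9.97 to 10.02, 10.01 and 9.96 in UKE1. The UKE1 arrays overlapped while the HEL arrays did not, and the difference of the responses was 0.50 ± 0.0825 (adjusted p = 0.0006). MRPS10, with a bacterial counterpart in the small subunit, went from 11.01, 11.04 and 10.93 to 10.46, 10.47 and 10.48 in HEL, and from 9.96, 9.87 and 9.88 to 9.73, 9.89 and 9.77 in UKE1, a difference of 0.42 (adjusted p = 0.00302).

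MRPL15 fell in both lines and fell less in UKE1, by 0.35 ± 0.0833 on the log2 scale (adjusted p = 0.00729). For MRPL42, MRPS14, MRPS31 and MRPS30 the differences of 0.40, 0.31, 0.28 and 0.28 passed the test (adjusted p = 0.0242, 0.046, 0.032 and 0.0248) but were not called under 5, 11, 8 and 4 of 18 alternatives, with highest adjusted p-values of 0.0604, 0.117, 0.0854 and 0.093. Most of those alternatives each leave out 1 array.

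**Figure D3:**
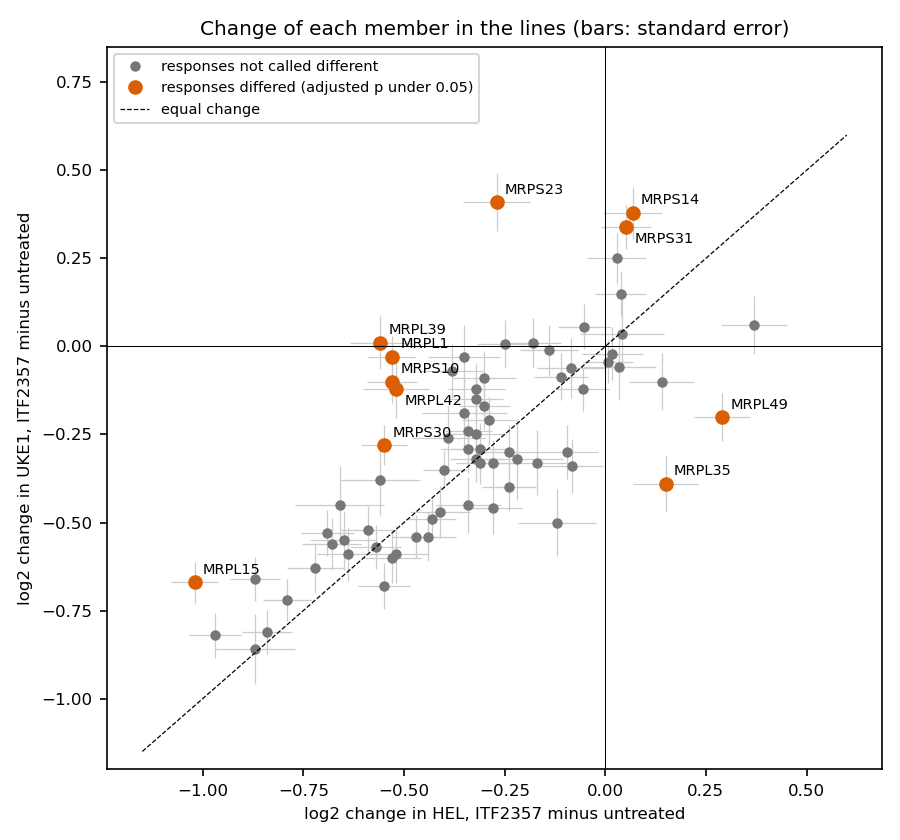
Log2 change of each of the 73 members under ITF2357 in HEL (x axis) and in UKE1 (y axis) with standard errors as bars; the dashed line marks equal change and orange points are the 11 members whose responses differed. Most members lie in the lower left, where both changes are negative, while MRPS23 and MRPL49 lie in opposite quadrants.

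Without drug, the members were more often lower in UKE1 than in HEL. Of the 73, 40 (54.8%) were lower in untreated UKE1 and 13 (17.8%) higher, against 34.4% and 33.3% of all genes (67.7% in either direction). The median difference was -0.29, beside -0.00047 over all genes, and it was -0.20 after quantile normalization of the arrays. Untreated UKE1 arrays lay wholly below the untreated HEL arrays for 42 members and wholly above for 13, against 35.2% and 34.2% of all genes.

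MRPS12 stood lowest in UKE1 relative to HEL, at 7.27, 7.51 and 7.34 in untreated UKE1 and at 8.60, 8.56 and 8.73 in untreated HEL. The difference was -1.26 ± 0.111 (adjusted p = 1.78e-07), 2.39-fold, and every UKE1 array was below every HEL array. MRPS10 was 2.14-fold lower (-1.09 ± 0.0615, adjusted p = 1.28e-09) and MRPL20 1.96-fold lower (-0.97 ± 0.0661, adjusted p = 1.08e-08). MRPS21 and MRPS22, both of the small subunit, differed by -0.93 and -0.92 (adjusted p = 9.24e-08 and 1.08e-06). With ITF2357, 3 of these 5 genes fell in UKE1 as well, MRPS12 by a log2 change of -0.45, MRPL20 of -0.53 and MRPS22 of -0.50 (adjusted p = 0.00431, 1.45e-05 and 0.000591). MRPS10 and MRPS21 were not called there (-0.10 and -0.069, adjusted p = 0.201 and 0.523).

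MRPL1 was 2.14-fold higher in untreated UKE1 (1.10 ± 0.0583, adjusted p = 6.72e-10), and its arrays are given above. MRPS27, a small subunit protein of the RNA-binding pentatricopeptide repeat family, was at 9.60, 9.61 and 9.41 in HEL and at 10.27, 10.42 and 10.47 in UKE1, 1.8-fold higher (adjusted p = 1.41e-07). MRPL13 was at 6.04, 6.05 and 6.08 in HEL and at 6.75, 7.04 and 6.64 in UKE1, 1.68-fold higher (adjusted p = 6.07e-06). MRPL23 was 1.62-fold and MRPL50 1.39-fold higher (adjusted p = 1.87e-06 and 4.01e-05). For these 5 genes no UKE1 array was as low as any HEL array, and with ITF2357 MRPS27, MRPL23 and MRPL50 fell in UKE1 while MRPL1 and MRPL13 were not called there.

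**Figure D4:**
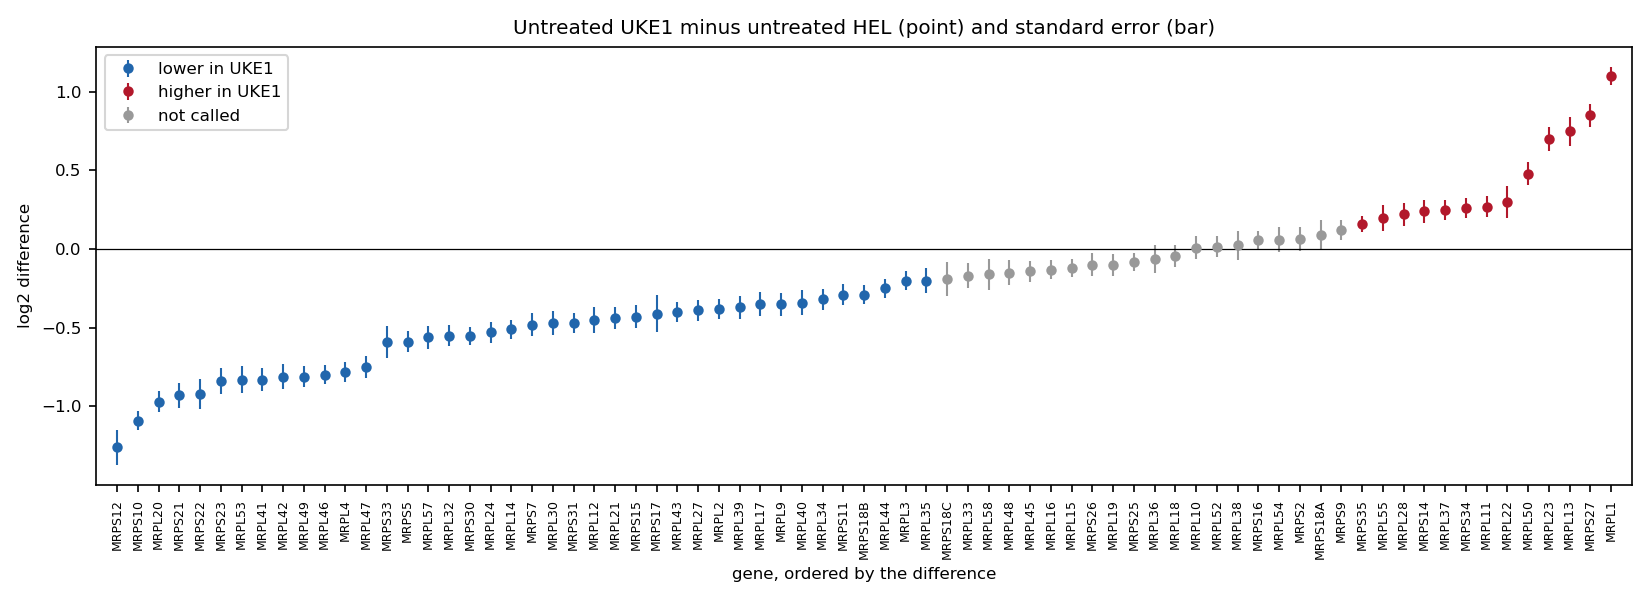
Difference between untreated UKE1 and untreated HEL (y axis, log2) for each of the 73 members (x axis, ordered by the difference) with standard errors as bars and colours for the call. It runs from -1.26 for MRPS12 to 1.10 for MRPL1, with 40 members lower and 13 higher in UKE1.

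Genes that work with the mitochondrial ribosome were counted by lists written from textbook knowledge, over the same tests. For each list below, the shares over all genes were 19.9% fallen and 22.6% risen in HEL, and 22.3% and 22% in UKE1. Of 5 measured genes listed as subunits under other symbols, 3 fell and 2 rose in HEL (60% and 40%). UKE1 had 1 fall and 2 rises (20% and 40%). Of the 4 other than LACTB, 3 fell and 1 rose in HEL, and 1 fell and 1 rose in UKE1. DAP3, a GTP-binding protein of the small subunit, rose by 0.36 ± 0.0858 in HEL and 0.35 ± 0.0858 in UKE1 (adjusted p = 0.00357 and 0.00367). LACTB, a filament-forming protein of the intermembrane space that was once listed as a ribosomal subunit, rose by 0.65 ± 0.0829 and 1.48 ± 0.0829 (adjusted p = 1.84e-05 and 9.2e-09), and its responses differed (adjusted p = 0.000189). PTCD3, a small subunit protein, fell in HEL (-0.30, adjusted p = 0.000998) and was not called in UKE1 (0.0083, adjusted p = 0.934). GADD45GIP1, of the large subunit, fell in HEL (-0.28, adjusted p = 0.0043) and changed by -0.15 in UKE1 without a call (adjusted p = 0.0993).

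Of 16 measured mitochondrial translation factors, 8 fell and 2 rose in HEL (50% and 12.5%). UKE1 had 6 falls and 2 rises (37.5% and 12.5%). MTRF1L and MTFMT rose in both lines, by 0.46 and 0.54 in HEL and by 0.38 and 0.45 in UKE1. MTIF2, the initiation factor that brings the first tRNA, changed by -0.88 ± 0.0639 in HEL and -0.79 ± 0.0639 in UKE1 (adjusted p = 1.03e-07 and 2.27e-07). The elongation factor GUF1 changed by -0.73 and -0.82, the recycling factor MRRF by -0.77 and -0.49, and MTRF1, of the release factor family, by -0.76 and -0.61, all with adjusted p-values of 4.92e-05 or lower.

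Of 26 measured genes for assembly of the ribosome and modification of its RNA, 14 fell and 4 rose in HEL (53.8% and 15.4%). UKE1 had 16 falls and 2 rises (61.5% and 7.69%). The rRNA methyltransferases MRM1 and NSUN4 changed by -1.03 and -0.89 in HEL and by -1.29 and -1.12 in UKE1 (adjusted p of 1.09e-06 or lower). FASTKD2, an RNA-binding protein needed for the large subunit, changed by -1.01 and -0.89 (adjusted p = 4.91e-08 and 1.26e-07). The pseudouridine synthase RPUSD4 changed by -1.05 in HEL and -0.43 in UKE1, responses that differed (0.62 ± 0.0854, adjusted p = 0.000163).

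Of 18 measured genes for transcription and RNA processing in mitochondria, 10 fell and 1 rose in HEL (55.6% and 5.56%). UKE1 had 10 falls and 0 rises (55.6% and 0%). TFB2M, which opens mitochondrial promoters for the RNA polymerase, changed by -0.95 in HEL and -0.33 in UKE1 (difference 0.61 ± 0.0863, adjusted p = 0.000187). The exoribonuclease PNPT1 changed by -0.80 and -0.93, its partner helicase SUPV3L1 by -0.78 and -0.39, and TRNT1, which adds the end of tRNAs, by -0.81 and -0.73 (adjusted p of 0.000454 or lower in each line).

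Of 16 measured mitochondrial aminoacyl-tRNA synthetases, which charge tRNAs with amino acids, 8 fell and 1 rose in HEL (50% and 6.25%). UKE1 had 9 falls and 2 rises (56.2% and 12.5%). WARS2, for tryptophan, changed by -1.42 ± 0.0925 in HEL and -0.74 ± 0.0925 in UKE1 (adjusted p = 4.27e-08 and 1.43e-05), and YARS2, for tyrosine, by -1.10 and -1.17 (adjusted p = 1.2e-07 and 5.62e-08). EARS2, for glutamate, changed by -0.93 and -0.70 and SARS2, for serine, by -0.64 and -0.81 (adjusted p of 6.39e-06 or lower).

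Of 16 nuclear regulators of mitochondrial genes, 11 fell and 2 rose in HEL (68.8% and 12.5%). UKE1 had 10 falls and 0 rises (62.5% and 0%). PPRC1, a coactivator of nuclear genes for mitochondria, changed by -1.66 ± 0.0689 in HEL and -1.65 ± 0.0689 in UKE1 (adjusted p = 1.74e-09 and 9.4e-10). GABPA and GABPB1, the subunits of the ETS factor GABP, changed by -1.45 and -1.07 in HEL and by -0.75 and -1.07 in UKE1 (adjusted p of 6.33e-06 or lower), and the change of GABPA differed between the lines (adjusted p = 0.000968). MYC changed by -0.79 ± 0.0581 in HEL and -0.22 ± 0.0581 in UKE1 (adjusted p = 1.18e-07 and 0.00664). The part of these changes in those of the members was not tested.

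Related classes of genes were set beside the members. Of 65 coding genes taken by symbol as cytosolic ribosomal proteins, 12 fell and 2 rose in HEL (18.5% and 3.08%). The median change of the 65 in HEL was -0.011. In UKE1 8 fell and 1 rose, with a median of -0.042. The symbol rule can also admit paralogs that are like ribosomal proteins. Of 78 nuclear genes named as subunits of oxidative phosphorylation, which include the inhibitor ATP5IF1, 20 fell and 9 rose in HEL (25.6% and 11.5%) with a median of -0.048, and 29 fell and 7 rose in UKE1 (37.2% and 8.97%) with a median of -0.11. The corresponding medians of the mitochondrial ribosomal proteins were -0.32 and -0.29. The classes were not tested against each other.

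**Figure D5:**
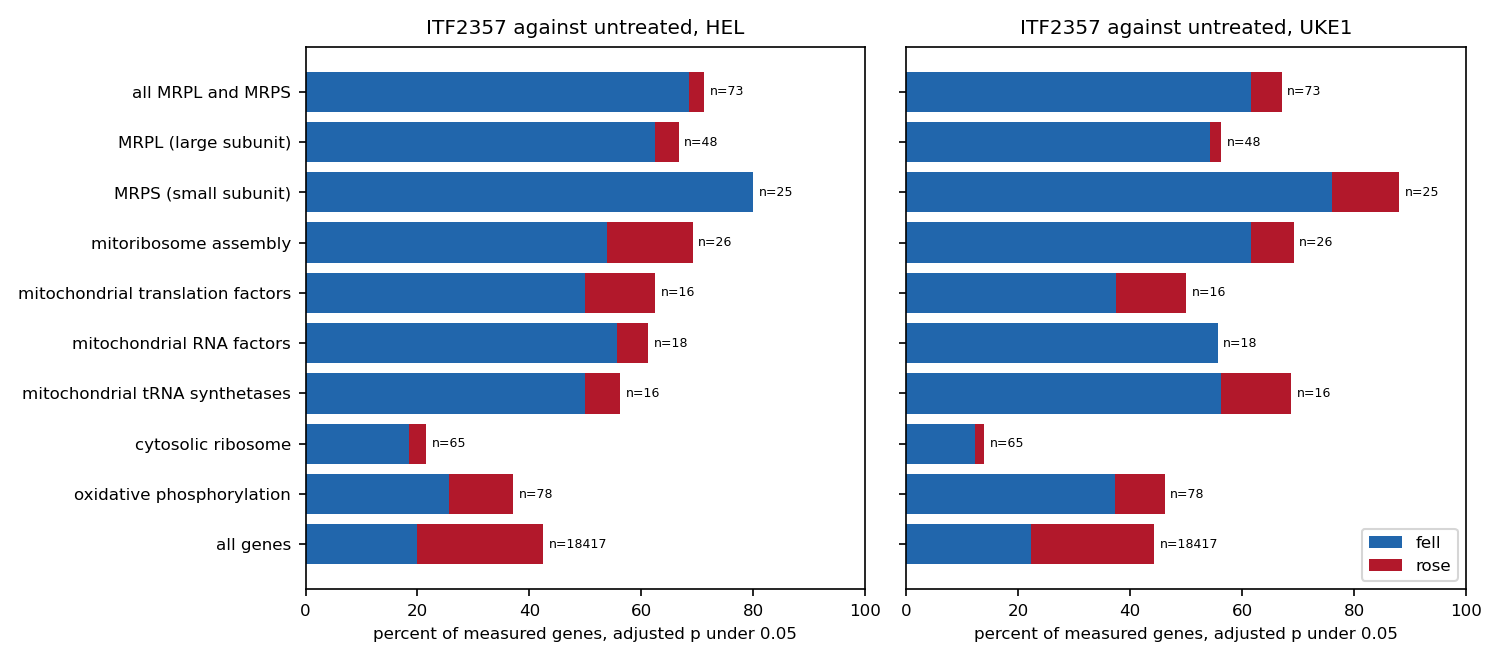
Percent of measured genes (x axis) that fell (blue) or rose (red) under ITF2357 in HEL on the left and UKE1 on the right, for the mitochondrial ribosomal proteins, the lists around them and all genes tested (y axis). Of the mitochondrial ribosomal proteins 68.5% fell in HEL and 61.6% in UKE1, beside 19.9% and 22.3% of all genes. The lists of subunits under other symbols and of nuclear regulators of mitochondrial genes are not drawn. The shares of all genes are not matched for level.

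Returning to the promoters, the motifs were split by response after the values were seen. Of the 66 matched members, 36 fell in both lines, and 14 of these (38.9%) held at least 1 motif, against 22 of the 30 others (73.3%). Beside the ETS counts given with the sequences, the NRF1 motif was in 5 of the 36 and 8 of the 30, the YY1 motif in 1 and 4, and the E-box in 0 and 6. These are counts of letters in a window and carry no test.

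For some members a gene that runs the other way starts nearby, a description also made after the values were seen. A coding gene started within 1000 bases head to head for 17 of 66 members (25.8%), against 10.7% of 13769 coding genes tested. These 17 neighbours include the members MRPL46 and MRPS11. Of the 17, 7 fell and 3 rose in HEL, with a median change of -0.07, against 19.9% and 22.6% of all genes. In UKE1 6 fell and 4 rose, with a median of -0.04, against 22.3% and 22% of all genes. MRPL46 and MRPS11, a large and a small subunit gene whose starts lie 320 bases apart, are each other's neighbour and both fell in both lines, MRPS11 with changes of -0.28 and -0.33 (adjusted p = 0.00293 and 0.000866). MRPS12 and the synthetase gene SARS2, 181 bases apart, also both fell in both lines. MRPS18C and HELQ, a DNA helicase gene 175 bases apart, went different ways in HEL, where HELQ rose by 0.21 (adjusted p = 0.0287). HELQ also rose in UKE1, by 0.44 (adjusted p = 0.000128). Other pairs called in opposite directions were MRPL32 and PSMA2, MRPL40 and HIRA, and MRPL49 and FAU in HEL. In UKE1 they were MRPL30 and MITD1, and MRPS2 and PIERCE1. MRPL27 and EME1 fell together in both lines. So did MRPL54 and APBA3, and MRPL57 and SKA3, in HEL, and MRPL50 and ZNF189, and MRPS27 and PTCD2, in UKE1.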

How the data were processed

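The 12 arrays were grouped by line and treatment as labelled. The submitters' processing notes name Affymetrix Expression Console and RMA, of versions not given in the sources used here. Values deposited by the authors were read as log2 from their range (1.26 to 14.36). Of 33297 rows, 19460 carried 1 symbol; the row with the highest mean was kept per gene, which left 18417 genes. MRPL36 has a second row with other changes (-0.57 in HEL and -0.48 in UKE1, against -0.35 and -0.029). All arrays entered a limma 3.58.1 fit in R 4.3.3 with a mean for each group, two-sided, Benjamini-Hochberg adjusted over all genes, at 0.05, and checked on simulated data. Errors of changes are standard errors of the fit.

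Members, lists and naming rule were chosen with earlier results of these data known. Named were the 10 largest falls and rises without overlap in each line, the 5 largest differences each way between responses and between untreated lines, the MRPS18 paralogs, and up to 4 genes per list with the smallest adjusted p. Others were named after their values were seen. Rows with several symbols were left out.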

Additional observations from a re-analysis of the deposited data

Results flagged for a closer look

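The response to ITF2357 differed between the lines, by limma's test of the difference, for 11 members. The difference (UKE1 minus HEL, log2) was positive for MRPS23 (0.68), MRPL39 (0.57), MRPL1 (0.50), MRPS10 (0.42), MRPL42 (0.40), MRPL15 (0.35), MRPS14 (0.31), MRPS30 (0.28) and MRPS31 (0.28). It was negative for MRPL35 (-0.54) and MRPL49 (-0.49). Of these, 2 (MRPL15 and MRPS30) fell in both lines. Groups of 3 arrays were not searched for single outlying arrays.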

How the results depend on the processing

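Under all alternatives run, the counts of members that fell or rose in HEL, in UKE1 and on average stayed within 1.5 times. Their medians did so too and kept their direction. The alternatives were other normalizations, a filter on low levels, the mean of all rows of a gene and an intensity trend. A replicate block, fits of 1 line and each array left out were run as well. With 1 array left out, 47 to 51 members fell in HEL and 40 to 45 in UKE1. For the difference between responses, median centring gave 5 members more positive and 4 more negative in UKE1 and a median of -0.006, and genes above the median level gave 5 more negative; the main values were 9, 2 and 0.051. The median between untreated lines was -0.20 after quantile normalization. For 62 single-gene results, 1111 values kept their call, 42 lost it, 1 gained it and 0 turned. Replicate numbers gave no clear sign of paired arrays. Of 18 pairs with the same number, 1 correlated above 0.1 (range -0.088 to 0.12). In 13 of 36 comparisons the best match had the same number. This check cannot show whether arrays of the same number were handled together. With the replicate block 50 members fell in HEL and 44 in UKE1. Signal over background is unknown here, and 3 arrays a group limit the precision.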
